A study of Mikania micrantha with 15 samples.

Results

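The flower and the stem of Mikania micrantha, a climbing vine of the daisy family known as an invasive weed, were compared by RNA sequencing of 3 flower libraries and 3 stem libraries. These 6 libraries were chosen by their organ labels, out of 15 that also cover leaf, root and shoot apex. All plants were wild type and untreated, were raised from rooted cuttings in Hoagland mineral solution, and gave total RNA. The series set out to relate the organs' transcriptomes to the rapid growth of this vine. Whether the replicates are separate plants is not in the labels, so every p-value rests on library-to-library spread, part of which may be technical. All 41487 gene IDs of the count table were considered, and 27055 had enough reads in the 15 libraries to be tested.

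In this family many small flowers, the florets, sit together in a head. They bring together petals, anthers with pollen, and ovules, each with gene programmes of its own. A stem carries water and sugars through xylem and phloem, and its xylem has thickened, lignified walls. Both organs are mixtures of cell types, and in bulk RNA fewer cells of a type and less RNA per cell cannot be told apart. The gene IDs are locus tags that the table does not pair with names, and no annotation was used here. Genes are therefore described by level and pattern, no function is assigned to any ID, and the organ labels could not be checked against marker genes.

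Library totals were 9567064 to 11770796 counts in flower and 5445218 to 9721732 in stem, so that stem was the shallower organ. Levels are given in CPM, in which the counts of each library are divided by its total (after TMM scaling, edgeR's correction for differing library composition) and brought to a common size. Where plain library totals are named, that correction was left out. Across the genes tested, libraries of flower correlated with each other at Pearson's r of 0.975 to 0.984 on log2 CPM, libraries of stem at 0.951 to 0.978, and libraries of flower with those of stem at 0.753 to 0.771. Genes are not independent of each other, so these are descriptions. The biological coefficient of variation was 15.6% in flower and 29.8% in stem. Stem replicate 3 stood apart from stem replicates 1 and 2, which had the r of 0.978, and results that rest on it are given with and without it.

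Flower and stem differed in 10895 genes, 40.3% of those tested. A gene was called when edgeR's quasi-likelihood test gave a Benjamini-Hochberg adjusted p under 0.05 and the fitted change was at least 2-fold. Of the calls, 6733 were higher in flower (24.9% of the genes tested) and 4162 were higher in stem (15.4%). Flower was the higher organ in 61.8% of the calls after TMM scaling and in 75% when plain library totals were used. Over all genes the median log2 fold change was 0.47 with plain totals and 0.17 with TMM, a shift of 0.30. Without the 2-fold limit, an adjusted p under 0.05 was reached by 54.8% of the genes tested. When each change was tested against 2-fold itself (edgeR's glmTreat), 6249 genes were called, 23.1% of those tested, with 4074 higher in flower and 2175 in stem.

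The differences were larger in the genes of flower than in those of stem. The median fold between the mean CPM of the organs was 5.19 for genes called higher in flower and 3.25 for genes called higher in stem. For these folds a mean below 3 counts over the 3 libraries, which is 0.084 CPM in flower and 0.148 CPM in stem, was set to that floor, so a fold against an organ with no read is a lower bound. At least 16-fold was reached by 1417 genes higher in flower, 21.0% of them, and by 317 genes higher in stem, 7.62% of them. At least 64-fold was reached by 470 genes higher in flower and 54 higher in stem, and at least 1000-fold by 27 genes of flower and 1 of stem. In 6660 of the 6733 genes higher in flower every flower library lay above every stem library. Over all genes tested, 37.9% had that order. In 4008 of the 4162 genes higher in stem every stem library lay above every flower library, an order found in 29.9% of all genes tested.

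The genes called higher in stem were fewer but at higher levels. Genes higher in flower had a median of 10.6 CPM in flower and 1.37 CPM in stem. Genes higher in stem had a median of 11.04 CPM in flower and 41.3 CPM in stem. In the higher organ, 100 CPM or more on average was reached by 307 genes higher in flower, 4.56% of them, and by 1131 genes higher in stem, 27.2% of them. Under 10 CPM were 3261 genes higher in flower and 897 higher in stem.

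The direction of the calls thus turned over with expression level, as the plot of calls by level shows. Among the 3049 tested genes whose higher organ had 1 to 3 CPM, 38.5% were called higher in flower and 8.79% higher in stem. Among the 7619 genes at 30 to 100 CPM the shares were 17.6% and 16.5%. Among the 438 genes at 300 CPM or more, 5.25% were called higher in flower and 59.8% higher in stem. In that top class the stem share was 40.2% with plain library totals and 69.6% without stem replicate 3, and it stayed above the flower share in each of the fits run. Genes under 1 CPM were called least often, 16.9% of 1606, where few reads were counted.

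**Figure D1:**
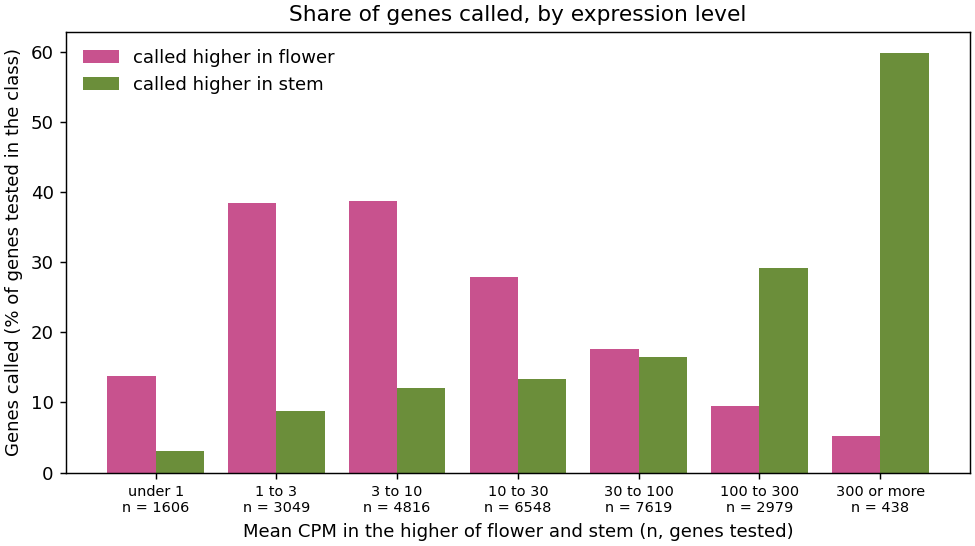
Share of the genes tested (percent) that were called higher in flower (pink) or in stem (green), in classes of the mean CPM in the higher of both organs, with the number of genes tested under each class. The flower share falls from 38.7% at 3 to 10 CPM to 5.25% at 300 CPM or more, while the stem share reaches 59.8% in that class.

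Counted as reads rather than as genes, the order of the sets depended on the scaling. The genes called higher in flower took 19.6, 18.9 and 19.8% of the counts of flower replicates 1, 2 and 3, against 3.10, 3.39 and 4.24% in stem replicates 1, 2 and 3. The genes called higher in stem took 13.2, 15.1 and 13.6% of the counts in flower and 36.8, 36.4 and 31.8% in stem. Stem replicate 3 lay nearest to flower in both sets. With TMM scaling the set higher in stem thus took more of the stem counts than the set higher in flower took of the flower counts, with means of 19.4% for flower and 35.0% for stem. With plain library totals the order was reversed, at 26.1% for flower and 22.3% for stem. These shares describe genes that were chosen on the same libraries, and no test is given. The shoot apex, leaf and root libraries were not in the contrast, but they entered the filter, the scaling and the shared spread of the fit. In them, genes higher in flower took 14.2 ± 0.382% of the counts in shoot apex, 9.20 ± 1.43% in leaf and 7.36 ± 0.821% in root (SD, n = 3 each). Genes higher in stem took 15.4 ± 0.428% in shoot apex, 26.2 ± 3.90% in leaf and 27.6 ± 1.28% in root. The mean of shoot apex thus lay between those of flower and stem in both sets, and nearer to flower, and no library of shoot apex overlapped with one of leaf or root.

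**Figure D2:**
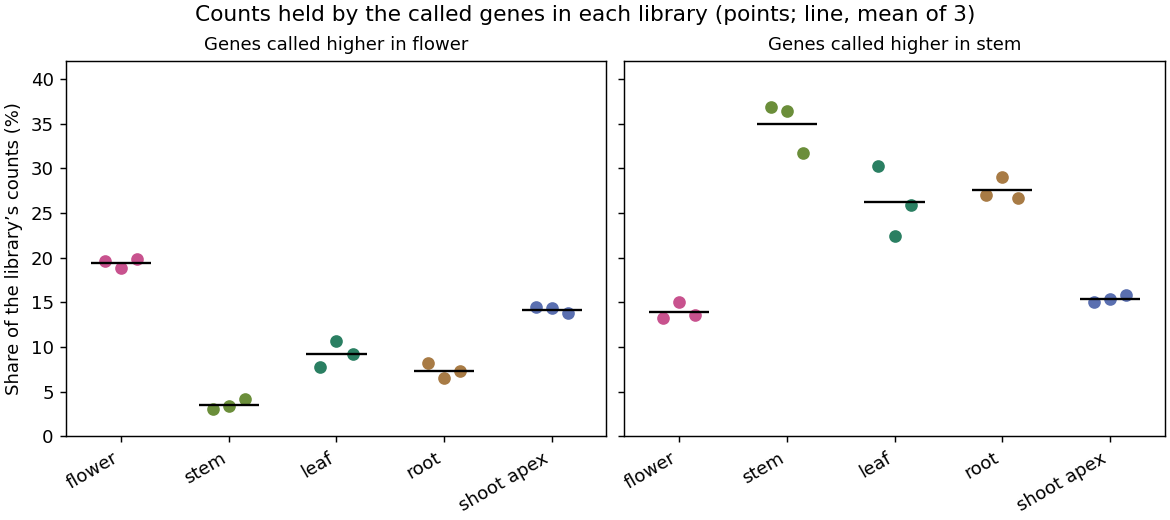
Share of each library's counts (percent) held by the genes called higher in flower (left) and by the genes called higher in stem (right), with 1 point per library and a line at the mean of 3. The genes of stem take 31.8 to 36.8% of the stem libraries and 13.2 to 15.1% of the flower libraries, and shoot apex sits near flower in both panels.

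The stem transcriptome was also concentrated in fewer genes. The most abundant 3602, 3041 and 3222 genes made up 50% of the counts in flower replicates 1, 2 and 3, against 1868, 2009 and 2692 genes in stem replicates 1, 2 and 3. The flower libraries all lay above the stem libraries, with means of 3288 ± 286 genes in flower and 2190 ± 441 genes in stem (SD, n = 3 each). A two-sided exact permutation test gave p = 0.1, the smallest that 3 libraries against 3 allow. Of the 100 genes with the highest mean CPM in each organ, 38 were shared. Of the top 100 in flower, 22 were called higher in flower and 24 were called higher in stem. Of the top 100 in stem, 84 were called higher in stem and 0 were called higher in flower by the edgeR test with the 2-fold limit. Over all genes tested, 24.9% were called higher in flower and 15.4% higher in stem. Each list was picked on a mean that also enters the call, so a lean towards its own organ is built in.

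The most abundant ID in all 6 libraries was E3N88_24217, which was chosen after its values were seen. It had 2265, 4533 and 5038 CPM in flower replicates 1, 2 and 3 and 23573, 15286 and 2807 CPM in stem replicates 1, 2 and 3. Stem replicates 1 and 2 lay above every flower library and stem replicate 3 lay within the flower range. The gene was not called, with a log2 fold change of flower over stem of -1.82 ± 0.80 (SE, edgeR adjusted p = 0.0647). DESeq2 did call it higher in stem (DESeq2 adjusted p = 0.0273), as did edgeR with no filter on low counts (edgeR adjusted p = 0.0449). The other fits that kept all 6 libraries did not. Root replicates 1, 2 and 3 were as uneven, at 2741, 35389 and 22932 CPM. Without stem replicate 3 the gene was called higher in stem, and its log2 fold change was then -2.36 with an SE of 0.73 (edgeR adjusted p = 0.0155).

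A total of 19564 IDs reached 1 CPM on plain library totals in all 6 libraries. A further 4334 did so in all 3 flower libraries but not in every stem library, and 682 in all 3 stem libraries but not in every flower library. Complete absence was almost one-sided. In flower, 699 IDs reached 1 CPM in every library and had no read in stem, and in stem 22 IDs did so and had no read in flower. With each library thinned to the smallest total, 5445218 counts, the numbers were 750 and 36. All 699 and all 22 had passed the filter and were called. That follows from the choice and is no separate result.

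Absence in stem rested on stem replicate 3 more than on the other stem libraries, and absence in flower on flower replicate 1. Without stem replicate 3 the flower set grew to 1090 IDs, since 391 IDs with no read in stem replicates 1 and 2 had reads there, at a median of 2 reads. Stem replicate 3 was also the deepest stem library. Without stem replicate 1 or 2 the flower set held 771 or 812 IDs. Without flower replicate 1, the deepest flower library, the stem set grew to 44 IDs, through 22 IDs with 1 to 6 reads there. A read count of 0 thus marks a level under the floor at this depth and not the absence of a transcript.

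The IDs seen in flower and not in stem were mostly low, with a few very abundant ones. Their median was 5.09 CPM in flower, 227 of the 699 had a mean of at least 10 CPM and 36 of at least 100 CPM, and the highest was at 1979 CPM. The lower bounds of their folds over stem ran from 6.85 to 13333, with a median of 34.3. Together they took 1.70 to 1.92% of the counts in flower. Most of them were little seen in any organ but flower. Of the 699, 434 had no read in root, 322 none in shoot apex, 181 none in leaf, and 91 none in any of these organs. Only 44 of them held 1 CPM or more in every root library, 45 in every shoot apex library and 27 in every leaf library. The lower number without a read in leaf goes with leaf replicate 1, in which 435 of them had a read, against 238 and 201 in leaf replicates 2 and 3. Why leaf replicate 1 differed was not tested.

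Most of the 22 IDs seen in stem and not in flower also had reads in root. Their median was 4.24 CPM in stem, 7 had a mean of at least 10 CPM, and 1 of at least 100 CPM. The lower bounds of their folds over flower ran from 14.98 to 1526. In root 20 of the 22 had a read and 13 reached 1 CPM in all 3 libraries, and 12 had a higher mean in root than in stem. Leaf and shoot apex each had 1 ID at 1 CPM or more in every library. Of all 41487 IDs, 20134 reached that level in every root library, 21194 in every leaf library and 22475 in every shoot apex library. The share in root among all IDs detected in stem was not counted, so the overlap with root is a description. None of the 22 was without a read in all of leaf, root and shoot apex, so no ID of this set was seen in stem alone.

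Genes were named by a rule that takes, in each direction, the called gene with the largest fold and the one with the highest level, or the second largest fold where both are the same gene. Only genes averaging 10 CPM or more in their higher organ, with no overlap between the libraries, were eligible. The choice used the contrast itself, so the values describe the extremes of the comparison. In flower the rule gave E3N88_15267, which had both the largest fold and the highest level. It was at 1161, 2237 and 2538 CPM in flower replicates 1, 2 and 3 and had no read in the 3 stem libraries. All flower libraries thus held it in large amounts, and it was at least 13333-fold higher in flower (edgeR adjusted p = 0.000552). The next by fold was the neighbouring ID, E3N88_15268. It was at 375, 702 and 716 CPM in flower replicates 1, 2 and 3, again with no read in stem, and was at least 4029-fold higher in flower (edgeR adjusted p = 0.000793). Both IDs were lowest in flower replicate 1. Outside flower, both had more than 5 reads in leaf replicate 1 alone, at 161 and 43.2 CPM, with 0 and 3 reads of E3N88_15267 and 0 and 2 reads of E3N88_15268 in leaf replicates 2 and 3.

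In stem the largest fold belonged to E3N88_38442. It had no read in the 3 flower libraries and was at 172, 165 and 47.6 CPM in stem replicates 1, 2 and 3. Stem replicate 3 was the lowest of the 3, and the gene was at least 1526-fold higher in stem (edgeR adjusted p = 2.33e-05). It was still higher in root, at 116, 373 and 257 CPM in root replicates 1, 2 and 3, and had no read in leaf or shoot apex. The most abundant gene of stem without overlap was E3N88_38007. It was at 409, 606 and 477 CPM in flower replicates 1, 2 and 3 and at 2780, 2831 and 2229 CPM in stem replicates 1, 2 and 3. Every stem library was far above every flower library, and the log2 fold change of flower over stem was -2.39 ± 0.23 (SE, edgeR adjusted p = 2.27e-06). This gene was seen in every organ, with means of 1530 ± 244 CPM in leaf, 718 ± 167 CPM in root and 434 ± 32.8 CPM in shoot apex (SD, n = 3 each).

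**Figure D3:**
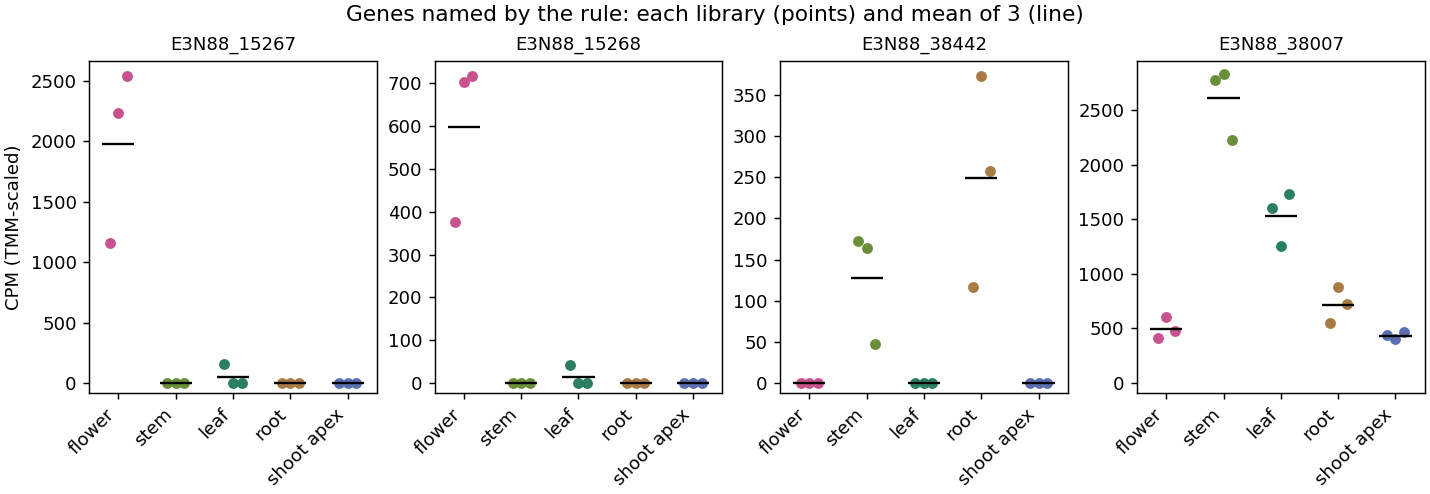
Level (CPM on TMM-scaled totals) of the 4 genes named by the rule in each of the 15 libraries, with 1 point per library and a line at the mean of 3. E3N88_15267 and E3N88_15268 reach 2538 and 716 CPM in flower with no read in stem, E3N88_38442 is seen in stem and root only, and E3N88_38007 is highest in stem and present in every organ.

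A gene more abundant than E3N88_38007 was called higher in stem with libraries that overlapped. This was E3N88_19942, chosen after its values were seen. It was at 455, 942 and 1168 CPM in flower replicates 1, 2 and 3 and at 5513, 2685 and 553 CPM in stem replicates 1, 2 and 3, so that stem replicate 3 lay below 2 of the flower libraries. Its log2 fold change of flower over stem was -1.77 ± 0.71 (SE, edgeR adjusted p = 0.0460), just inside the threshold. Without stem replicate 3 it was -2.32 ± 0.62 (SE, edgeR adjusted p = 0.00644). The call was lost without any one of the other 5 libraries, with an edgeR adjusted p of 0.0568 to 0.289, and with plain library totals, with an edgeR adjusted p of 0.0765. It was also lost with RLE scaling, in the fit of the 6 libraries, with a replicate block and against 2-fold (edgeR adjusted p of 0.053 to 0.239). It was lost with limma-voom too (limma adjusted p = 0.148). DESeq2 kept it (DESeq2 adjusted p = 0.0476), as did edgeR with no filter on low counts (edgeR adjusted p = 0.0318) and without leaf replicate 1 (edgeR adjusted p = 0.0454). E3N88_19942 was one of 154 genes called higher in stem whose libraries overlapped, beside 73 called higher in flower.

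The levels in leaf, root and shoot apex, which entered the fit but not the contrast, showed where else the called genes were high. Of the genes called higher in flower, flower itself was the highest of the 5 organs for 49.0%, shoot apex for 31.8%, leaf for 9.68% and root for 9.49%. Over all genes tested, flower was the highest organ for 17.9% and shoot apex for 25.9%. Of the genes called higher in stem, stem itself was the highest for 49.7%, root for 28.7%, leaf for 16.5% and shoot apex for 5.09%, against 15.3% for stem, 22.9% for root, 18.0% for leaf and 25.9% for shoot apex over all genes tested. A call in this contrast removes the lower of both organs from these counts, so they are a description. Stem was the lowest of the 5 organs for 44.1% of the genes higher in flower, and root for 34.8%. Over all genes tested these shares were 20.5% for stem and 28.9% for root. Flower was the lowest for 38.0% of the genes higher in stem, and shoot apex for 29.6%, against 13.0% and 19.4% of all genes tested. Here a call removes the higher of both organs, so these shares too are a description.

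Between the levels in flower and in stem, the other organs took different places. On log2(CPM + 1) of the organ means, shoot apex lay nearer to flower than to stem for 57.0% of the genes higher in flower and 75.7% of the genes higher in stem, against 64.1% of all genes tested. Root lay nearer to flower for 23.4% of the genes higher in flower and 42.8% of those higher in stem, against 37.4% of all. The medians on that scale ran in the same order of organs in both sets, with flower and stem at the ends. For genes higher in flower flower had 3.54, shoot apex 2.63, leaf 2.10, root 1.66 and stem 1.24. For genes higher in stem flower had 3.59, shoot apex 4.02, leaf 4.45, root 4.83 and stem 5.40.

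How far a gene was confined to flower went with the size of its fold over stem. Of the 2717 genes higher in flower with a fold between means under 4, shoot apex was the highest organ for 51.0% and flower for 26.2%. Flower was the highest organ for 52.5% of the 2599 genes at 4 to 16-fold, for 81.8% of the 947 genes at 16 to 64-fold and for 95.5% of the 470 genes at 64-fold or more. The flower level enters both the fold and the rank, so this too is a description. In stem the rise was smaller and did not hold in the top class. Stem was the highest organ for 45.8% of the 2586 genes under 4-fold, 54.6% of the 1259 genes at 4 to 16-fold, 64.6% of the 263 genes at 16 to 64-fold and 27 of the 54 genes at 64-fold or more. In that last class root was the highest organ for 42.6%, against 29.3% under 4-fold.

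**Figure D4:**
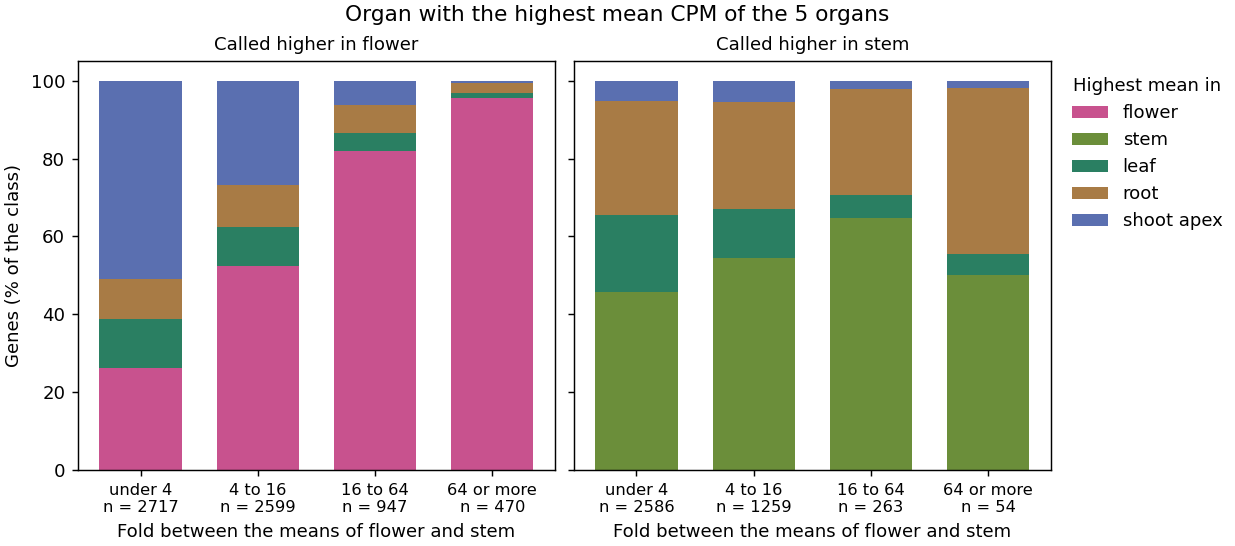
Organ with the highest mean CPM of the 5 organs (percent of genes) among the genes called higher in flower (left) and in stem (right), in classes of the fold between the means of flower and stem, with the number of genes under each class. Flower takes 26.2% of the lowest class and 95.5% of the highest on the left, while on the right root keeps 27.0 to 42.6% of every class.

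The genes that were not called were a mixture. Of the 16160 genes without a call, 3925 had an adjusted p under 0.05 with a fitted change below 2-fold. For 6201 genes, 22.9% of those tested, the 95% interval of the log2 fold change lay between -1 and 1, so that a change of 2-fold or more lay outside it. Their medians were 37.3 CPM in flower and 38.3 CPM in stem, and they took 36.6 ± 0.648% of the counts in flower and 31.3 ± 3.04% in stem (SD, n = 3 each). The other 9959 genes were neither called nor held within 2-fold. Of these, 3073 had an adjusted p under 0.05, and 6886, or 42.6% of the genes without a call, did not. The 9959 were lower, with medians of 9.28 CPM in flower and 8.48 CPM in stem.

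Genes that differed lay near each other in ID number somewhat more often than all genes did. Locus tags are commonly numbered along a genome, but positions were not used here. Of the genes called higher in flower whose next ID was also tested, 32.3% had a next ID that was called higher in flower too, against 24.6% over all 19652 tested genes with a tested next ID. For genes higher in stem the share was 21.4%, against 15.1%. The share was above that of all tested genes in both directions under each setting run. Runs of 3 or more consecutive IDs called the same way held 964 genes higher in flower, 14.3% of them, in 287 runs. In stem they held 294 genes, 7.06% of them, in 91 runs. How many such runs the share of calls alone would give was not worked out. Near-identical neighbours, between which the counting could have split reads, were not told apart.

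The longest runs were chosen after their values were seen. In flower it held 8 IDs, E3N88_13211 to E3N88_13218, of which 7 had low levels, with means of 1.29 to 8.20 CPM in flower and 0 to 0.554 CPM in stem. The eighth, E3N88_13217, was at 59.6 ± 9.30 CPM in flower and 0.331 ± 0.123 CPM in stem (SD, n = 3 each), and changed by 7.56 on the log2 scale (edgeR adjusted p = 4.54e-08). In stem the longest run held 6 IDs, E3N88_06196 to E3N88_06201, with means of 1.68 to 119 CPM in flower and 5.26 to 248 CPM in stem. Their log2 fold changes of flower over stem were narrow, from -1.86 to -1.06, so the long run in stem was one of small changes at moderate levels. The runs were defined by flower and stem alone. E3N88_13211, E3N88_13215, E3N88_13216 and E3N88_13218 had a higher mean in another organ than in flower. E3N88_06197 and E3N88_06200 had a higher mean in another organ than in stem.

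Replicates of stem disagreed in more genes than replicates of flower. Among genes with at least 10 CPM in some library of the organ, values differed by more than 4-fold on log2(CPM + 1) between the libraries for 14 of 16869 genes in flower and for 339 of 15806 genes in stem. Of the 339, 125 were called, 41 higher in flower and 84 higher in stem. Over all genes tested the called share was 40.3%, with 24.9% higher in flower and 15.4% in stem. Stem replicate 3 was the lowest library for 192 of the 339 and the highest for 146. After 0.5 CPM was added to each value, 14 IDs were more than 16-fold higher in stem replicate 3 than in either other stem library, and 0 IDs were so in flower replicate 1 against the other flower libraries. The reverse, more than 16-fold higher in both other stem libraries than in stem replicate 3, was found for 2 IDs. Set against stem replicate 3 alone, stem replicate 1 was more than 16-fold higher for 38 IDs, of which 14 were called higher in stem, against 15.4% of all genes tested. All 38 were higher in flower replicate 3 than in flower replicate 1. How many of all genes tested had that order was not counted, so no link between the organs' replicates is drawn.

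Of the 14 IDs that were over 16-fold higher in stem replicate 3, 6 fell within 11 consecutive IDs, E3N88_08193 to E3N88_08203. The 6, chosen after their values were seen, were E3N88_08193, E3N88_08195, E3N88_08199, E3N88_08201, E3N88_08202 and E3N88_08203. They were at 9.73 to 115 CPM in stem replicate 3 and at no more than 0.872 CPM in stem replicates 1 and 2. They were present in all 3 leaf libraries, at 12.3 to 357 CPM, and had at most 0.212 CPM in root and at or under 2.14 CPM in shoot apex. In flower they were uneven among themselves: E3N88_08193 had 49.7, 36.5 and 46.9 CPM in replicates 1, 2 and 3, and E3N88_08195 had 0.144, 0.195 and 0.174 CPM. The other 5 IDs between them had means of at most 3.68 CPM in every organ.

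Calls at these IDs rested on stem replicate 3. Of the 6, 3 were called higher in stem and 0 higher in flower by the edgeR test. Of all 14 IDs over 16-fold higher in stem replicate 3, 3 were called higher in stem and 1 higher in flower. Over all genes tested these shares were 15.4% and 24.9%. E3N88_08203 had 2.87, 2.44 and 1.91 CPM in flower and 0, 0 and 112 CPM in stem, and was called higher in stem with a log2 fold change of flower over stem of -3.98 ± 1.36 (SE, edgeR adjusted p = 0.0227). Without stem replicate 3 it was called the other way, with a fitted log2 fold change of 7.54 (edgeR adjusted p = 0.0201), which is no measured fold since the remaining stem libraries held no read. Without any one of the flower libraries it was not called, with an edgeR adjusted p of 0.0618 to 0.0723. The other calls among the 6 were E3N88_08195 and E3N88_08199, which were no longer called without stem replicate 3, with log2 fold changes of -0.82 (edgeR adjusted p = 0.700) and 0.87 (edgeR adjusted p = 0.506). E3N88_08193 and E3N88_08202, not called with all libraries, were then called higher in flower, with edgeR adjusted p = 5.59e-05 and 0.000429. E3N88_08203 was the 1 gene of the 10895 that was called in opposite directions by any fit that was run.

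**Figure D5:**
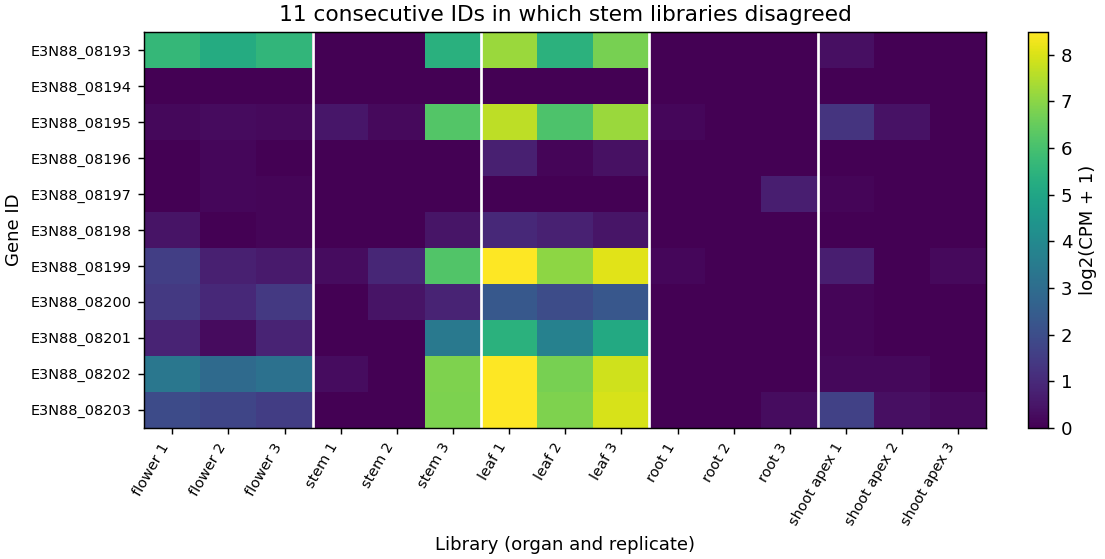
Level, as log2(CPM + 1), of 11 consecutive IDs in each of the 15 libraries. The 6 IDs named in the text are bright in all 3 leaf libraries and in stem replicate 3, at 9.73 to 115 CPM there, and dark in stem replicates 1 and 2, in root and in shoot apex.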

How the data were processed

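The authors deposited raw counts, as whole numbers of reads per gene, for 15 libraries in a single table. Per the submitters' processing notes the aligner was HISAT2. The sources used here do not give its version, the counter, the build, the annotation or the treatment of strand and of multiply mapped reads, so counts of overlapping, antisense or near-identical genes are uncertain. Library titles gave the organs.

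The counts were modelled in edgeR 4.0.16 (R 4.3.3). The filterByExpr filter left 27055 genes holding 99.9% of all counts. After TMM scaling, glmQLFit took all 15 libraries together with a term per organ, so that the organs shared 1 estimate of the spread, and glmQLFTest compared flower with stem. Benjamini-Hochberg adjustment ran over every gene tested. Calls required adjusted p below 0.05 plus a 2-fold change. Standard errors are the log2 fold change over the square root of F. Lower bounds put the organ without reads at 3 counts summed over its libraries and cover counting error only. Genes were named by the rule given with them.

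Replicate libraries differed by more than sampling noise (chi-square per degree of freedom 3.70 to 35.4), so none was merged. Counts for flower against stem were simulated over 26183 genes, with 67 genes changed 2-fold, 67 changed 4-fold and 66 changed 8-fold. There the calls recovered 90.9% of 8-fold, 53.7% of 4-fold and 11.9% of 2-fold changes, and 4 of 108 calls were false. All other genes were simulated as equal, and the organs shared the same spread. The data had far more calls and a wider spread in stem, so these rates need not hold for them. Alternatives were other scalings, no filter, DESeq2 1.42.0, limma 3.58.1 (voom), the 6 libraries alone, a replicate block, other call rules, and each replicate left out. Lists that need gene names were not run. The comparison, the naming rule and the lists were chosen with earlier results of these data known.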

Additional observations from a re-analysis of the deposited data

How the results depend on the processing

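The 3 counts of calls, the count within 2-fold and the 4 genes named by the rule kept their direction in each alternative run, and those genes stayed called, except that DESeq2 gave no adjusted p for E3N88_15268. Total calls ranged from 9941 to 11466 without 1 library and were 10939 with DESeq2, 10952 with limma-voom and 10498 in the fit of the 6 flower and stem libraries. Testing against 2-fold gave 6249 calls, 4074 higher in flower and 2175 in stem. An adjusted p under 0.05 with no fold limit gave 6572 genes higher in stem. Across the fits other than that against 2-fold, 7224 of the 10895 calls were made in the same direction each time. Depth limits the low genes most, and stem was the shallower organ.

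Whether the replicate numbers pair the libraries could not be told. Deviations from the organ means correlated at -0.198, 0.0863 and -0.114 between same-numbered flower and stem libraries. Between differently numbered ones they correlated at -0.157 to 0.235. With 3 libraries per organ, such values cannot show that libraries were or were not paired. With the replicate block there were 10586 calls over 15 libraries and 10151 in the fit of 6, so the block moved no count of calls by over 1.5 times.

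The numbers of IDs without a read moved with their definition. In flower, not stem, there were 311 at a limit of 5 CPM, 1988 at 1 read per library, 1215 with up to 3 reads allowed in stem, and 725 to 1090 without 1 library. In stem, not flower, there were 7, 94 and 58 under the same definitions, 36 after thinning, and 25 to 44 without 1 library.

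The share of flower counts in genes higher in flower was 26.1% with plain totals, 20.0485% with RLE factors, 20.1% with limma-voom, 20.1117% in the replicate block of 6 libraries, 12.3% against 2-fold, 28.7% with no fold limit and 17.6 to 19.5% without 1 library. The share of stem counts in genes higher in stem was 22.3% with plain totals, 18.3% against 2-fold, 56.1% with no fold limit and 30.5 to 47.1% without 1 library, the highest without stem replicate 3. With plain totals the flower share was thus the larger.

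Genes higher in flower were highest there in 44.2% of cases with plain totals, 46.6% with DESeq2, 53.02% with no filter, 50.5% in the fit of 6 libraries, 51.005% with its replicate block, 62.4% against 2-fold, 45.3% with no fold limit and 48.9 to 55.4% without 1 library. Genes higher in stem were highest there in 53.3% with plain totals, 51.4% in the replicate block of 6 libraries, 56.3% against 2-fold, 44.98% with no fold limit and 48.9 to 54.3% without 1 library.

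The share with a next ID called the same way was 38.1% in flower, against 31.0% over all tested genes, and 17.1% in stem, against 9.96%, with plain totals. With no filter it was 27.96% against 21.04% in flower and 18.3% against 12.4% in stem. Tested against 2-fold it was 22.9% against 14.8% in flower and 14.04% against 7.73% in stem, and with no fold limit 37.1% against 30.6% in flower and 29.5% against 24.4% in stem. It was 28.5 to 33.2% in flower and 19.9 to 21.8% in stem without 1 library. The cause of these movements was not tested. The fit without leaf replicate 1 was chosen after the data were seen.

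Among the 6 IDs that were high in stem replicate 3, the log2 fold changes of flower over stem turned positive in some fits. With limma-voom they were 0.026 for E3N88_08201, 1.87 for E3N88_08202 and 0.76 for E3N88_08203, and in the replicate block of 6 libraries 0.67 for E3N88_08202. Without 1 library they ranged from -5.39 to 0.87 for E3N88_08199, -3.10 to 5.56 for E3N88_08201, -2.87 to 6.13 for E3N88_08202 and -4.55 to 7.54 for E3N88_08203, the highest without stem replicate 3 for each.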
